A study of Homo sapiens with 6 samples.

Results

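The RNAs described here are 10 listed long noncoding RNAs, of which 7 are host transcripts of small nucleolar RNAs (snoRNAs), namely GAS5, SNHG1, SNHG3, SNHG5, SNHG7, SNHG8 and SNHG12, and 3 are MALAT1, NEAT1 and MEG3. They were chosen by gene symbol in the platform annotation of an Illumina Human HT-12 v4 BeadChip, on which 9 of the 10 had at least 1 named probe (13 probes in all) and 6 passed the filter on detection, out of 20046 genes with a named probe and 11129 that passed. All samples were HEK293T cells, a human embryonic kidney line that carries SV40 large T antigen. One group of 3 arrays came from RUNX1 overexpressed cells, transduced with a RUNX1 lentivirus, and the other 3 from Mock control overexpressed cells, which received the same kind of lentivirus with the multiple cloning sites alone (MCS). Both groups were selected with puromycin and harvested 7 days after transduction, and the study describes them as biological triplicates. HEK293T cells are not hematopoietic, and RUNX1 was delivered to them by a viral vector.

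A snoRNA host gene is transcribed as a longer RNA whose introns release snoRNAs, the guides for chemical modification of ribosomal and spliceosomal RNA, when it is spliced. The spliced exons of several hosts carry a 5′ terminal oligopyrimidine tract, a run of C and T at the start of the RNA that couples translation to nutrient signalling, and many are degraded by nonsense-mediated decay once ribosomes engage them. MALAT1 and NEAT1 stay in the nucleus, in speckles and paraspeckles, and MEG3 is a maternally expressed RNA of the imprinted DLK1 locus. The hosts are transcribed in most dividing cells, together with the genes of ribosomal proteins.

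Promoter windows are printed for the hosts on which the results below turn, because RUNX1 binds DNA and because the pyrimidine tract lies at the start of transcription. The sequences are from RefSeq on GRCh38.p14, where 9 of the 10 RNAs had an entry, and run 5′ to 3′ from 250 bases before to 50 bases after the annotated start. Capitals mark the letters TGTGGT or TGCGGT on either strand, the core letters of RUNX sites, and any C followed by at least 4 more C or T that begins within 5 bases of the start.
SNHG1 (chr11:62855836-62856135, minus strand): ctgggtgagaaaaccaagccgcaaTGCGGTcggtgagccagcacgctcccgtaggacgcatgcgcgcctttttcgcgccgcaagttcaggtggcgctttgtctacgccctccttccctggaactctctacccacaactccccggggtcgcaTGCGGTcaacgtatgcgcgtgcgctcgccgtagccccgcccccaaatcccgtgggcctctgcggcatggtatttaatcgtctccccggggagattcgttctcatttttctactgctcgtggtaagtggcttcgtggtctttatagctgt
SNHG5 (chr6:85678684-85678983, minus strand): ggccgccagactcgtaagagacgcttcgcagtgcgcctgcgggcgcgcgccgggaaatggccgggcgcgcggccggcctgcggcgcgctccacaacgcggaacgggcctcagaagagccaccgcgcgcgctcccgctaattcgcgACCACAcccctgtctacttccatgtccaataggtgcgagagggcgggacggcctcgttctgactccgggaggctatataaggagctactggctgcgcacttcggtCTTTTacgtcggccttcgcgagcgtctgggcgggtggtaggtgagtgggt
SNHG7 (chr9:136728135-136728434, minus strand): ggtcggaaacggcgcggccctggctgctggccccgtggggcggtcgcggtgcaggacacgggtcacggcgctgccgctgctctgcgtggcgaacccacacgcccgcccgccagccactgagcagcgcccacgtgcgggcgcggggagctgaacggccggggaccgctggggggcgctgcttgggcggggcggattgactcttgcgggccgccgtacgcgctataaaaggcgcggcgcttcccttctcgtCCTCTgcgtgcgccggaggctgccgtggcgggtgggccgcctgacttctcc
SNHG1 held TGCGGT 2 times, at positions -226 and -99 from its start, and SNHG5 held TGTGGT on the opposite strand at position -105, whereas the SNHG7 window held neither word. The 9 RNAs had 12 windows, since MALAT1 had several and those of MEG3 overlapped. At least 1 of these words was present in 7 of the 12 windows, beside 19.6% of all 35116 promoter windows, and these belonged to 5 RNAs (GAS5, SNHG1, SNHG5, MALAT1 and MEG3). The overlapping MEG3 windows hold the same match, counted again in each, so the windows are not separate sites and the shares are not directly comparable. SNHG5 and SNHG7 had a pyrimidine run at the start. For 3 further hosts, the 30 bases on each side of the start are shown for comparison of this run.
GAS5 (chr1:173869016-173869075, minus strand): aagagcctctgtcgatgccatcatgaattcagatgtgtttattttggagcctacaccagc
SNHG8 (chr4:118278732-118278791, plus strand): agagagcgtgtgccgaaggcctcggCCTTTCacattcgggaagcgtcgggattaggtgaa
SNHG12 (chr1:28581844-28581903, minus strand): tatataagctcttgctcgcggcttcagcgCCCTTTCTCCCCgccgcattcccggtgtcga
SNHG12 had the run of most letters, and SNHG8 a shorter one that began at position -5, so that most of it lies before the annotated start. GAS5 had none at the annotated start, and other possible starts were not analysed. A run was found in 5 of the 12 windows (1 each of SNHG5, SNHG7, SNHG8, SNHG12 and MEG3), beside 18.1% of all windows. These matches describe letters and do not show binding or a functional tract.

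Of 47231 probes, 18096 to 19321 were detected per array at a p under 0.05 against the negative controls. RUNX1 itself was detected in 1 of 18 signals of its 3 probes and in 0 of the signals on the arrays labelled RUNX1, with intensities up to 132. Where its probes lie relative to the transduced sequence was not analysed here, so this checks neither the labels nor the transduction, and RUNX1 array means an array so labelled throughout. Markers of the line were present in part: VIM, NEFL, NEFM and INA passed the filter, whereas PAX2 was detected in 0 of 18 signals. Principal component analysis of all genes set the arrays apart across the transduction labels: along the main axis (66.7% of the variance) replicate 3 of RUNX1 and replicates 2 and 3 of MCS had positive scores and the other 3 arrays negative ones, from -21.1 to -25.6. The former are called the positive-score arrays below. RUNX1 replicate 3 and MCS replicate 1 thus stand apart from the rest of their own groups, and values without them are given beside the results that they move most.

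For no listed RNA did the difference between RUNX1-overexpressing and MCS-transduced cells pass the test. Of the 6 that passed the filter, 0 were higher and 0 lower at an adjusted p under 0.05 from limma, beside 0% of all 11129 genes. The log2 differences, RUNX1 minus MCS, ran from -0.23 for SNHG1 to 0.15 for SNHG12 with a median of -0.0095, beside 0.021 over all genes tested. Of the 6, 3 had a difference above 0 and 3 below. At an unadjusted p under 0.05 there were 0 of 6, beside 2.26% of all genes (251), and 0 of 6 had groups that did not overlap, beside 6.56%. With 3 arrays per group the precision is limited by the number of arrays.

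**Figure D1:**
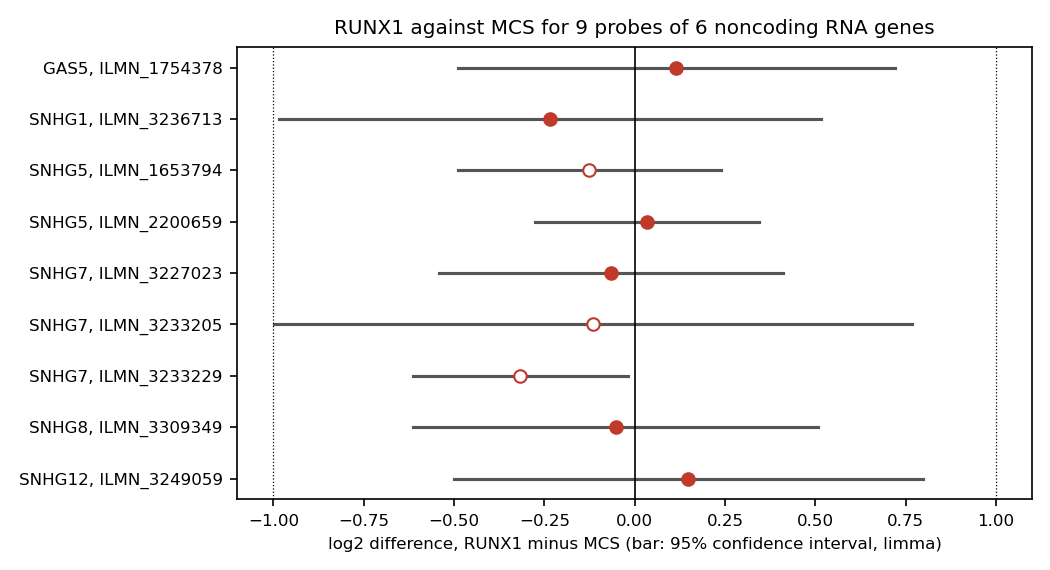
Log2 difference (x axis, RUNX1 minus MCS) of 9 probes of 6 noncoding RNA genes (y axis), with 95% confidence intervals from limma as bars, filled circles for the probe kept for its gene and dotted lines at a 2-fold change. The interval of SNHG7 probe ILMN_3233229, from -0.62 to -0.018, is the only one of the 9 that leaves out 0, and its adjusted p over all probes was 1.00.

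SNHG7, a host of H/ACA snoRNAs, which guide pseudouridylation, was read by 3 probes that behaved differently (gene at chr9:136724594-136728184). Probe ILMN_3233229, annotated to transcript NR_024542, had log2 values of 9.35, 9.26 and 9.30 on RUNX1 replicates 1 to 3 and of 9.50, 9.66 and 9.70 on MCS replicates 1 to 3. Every RUNX1 array lay below every MCS array, with no overlap. The difference was -0.32 (standard error 0.13), or 9.30 ± 0.047 (SD, n = 3) against 9.62 ± 0.10 (SD, n = 3), with an unadjusted p of 0.0405 and an adjusted p of 1.00 from limma over 18867 probes. Of the 9 probes of these RNAs past the filter it was the 1 with an unadjusted p under 0.05, beside 2.92% of all probes, and the 1 without overlap, beside 7.51% of all probes in either direction and 4.04% in this one. The exact 2-sided permutation p of 0.1 is the smallest that 20 labelings of 6 arrays allow. It was -0.28 to -0.38 when each array was left out in turn.
Both other SNHG7 probes are annotated to transcript NR_003672 and overlapped between the groups. Probe ILMN_3227023, kept for the gene, had 11.03, 11.06 and 11.54 with RUNX1 and 10.98, 11.34 and 11.50 with MCS, and probe ILMN_3233205 had 6.76, 6.73 and 7.68 with RUNX1 and 6.54, 7.14 and 7.83 with MCS. On both, the positive-score arrays were the 3 highest. The differences were -0.065 (95% confidence interval -0.54 to 0.41) and -0.11 (-0.998 to 0.769). The 3 probes of this gene therefore disagree in which arrays are low, and whether they read different transcripts was not tested.

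SNHG1 (chr11:62851978-62855885) carries a row of box C/D snoRNAs, guides of ribose methylation, in its introns. Its values were 12.62, 12.56 and 13.23 on RUNX1 replicates 1 to 3 and 12.37, 13.23 and 13.52 on MCS replicates 1 to 3. The highest and the lowest array were both MCS arrays, and the groups overlapped. The means were 12.81 ± 0.37 (SD, n = 3) and 13.04 ± 0.60 (SD, n = 3), a difference of -0.23 (95% confidence interval -0.99 to 0.52), which as a fold change runs from 0.503 to 1.44. Without RUNX1 replicate 3 and MCS replicate 1 together the difference was -0.78 and passed the threshold (adjusted p = 0.018 from limma), as did 1585 genes. In that comparison the groups coincide with positive and negative scores, and the transduction and that separation cannot be told apart. Without RUNX1 replicate 3 alone it was -0.45 and without MCS replicate 1 alone -0.57, with adjusted p-values of 0.699 and 0.64 from limma, and without MCS replicate 3 it was 0.0044.

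GAS5 (chr1:173863901-173869045), which accumulates in growth-arrested cells and hosts box C/D snoRNAs, was near background. Its probe had intensities of 124, 134 and 156 on the RUNX1 arrays and 133, 149 and 135 on the MCS arrays, where the lowest detected intensity was 124 to 129, and was detected on 5 of 6 arrays. On the log2 scale these were 5.42, 5.72 and 6.41 with RUNX1 and 5.55, 5.93 and 5.73 with MCS. The highest and the lowest array were both RUNX1 arrays. The difference was 0.12 (95% confidence interval -0.49 to 0.72) and became -0.17 without RUNX1 replicate 3.
SNHG8 (chr4:118278762-118279823), host of SNORA24, was also close to background and was detected on 6 of 6 arrays. Its values were 5.44, 5.63 and 6.33 with RUNX1 and 5.77, 6.02 and 5.78 with MCS. The RUNX1 arrays again spanned the MCS arrays. The difference was -0.053 (95% confidence interval -0.61 to 0.51), and it was -0.32 without RUNX1 replicate 3.
SNHG12 (chr1:28578538-28582983), host of SNORA61, SNORA16A, SNORA44 and SNORD99, had 6.73, 6.32 and 7.48 with RUNX1 and 6.75, 6.72 and 6.63 with MCS. The MCS arrays lay close together, with an SD of 0.064, and RUNX1 replicates 2 and 3 lay on either side of them, with a group SD of 0.59. The difference was 0.15 (95% confidence interval -0.51 to 0.80) and turned to -0.17 without RUNX1 replicate 3.

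SNHG5 (chr6:85677007-85678733), host of SNORD50A and SNORD50B, was read by 2 probes of the same transcript. The probe kept for the gene, ILMN_2200659, had 13.90, 13.95 and 13.79 with RUNX1 and 13.98, 13.79 and 13.77 with MCS. Its values spanned 0.21 over the 6 arrays, the smallest span of the 6 RNAs, at percentile 4.62 of all genes tested, where those of SNHG12 (1.16) and SNHG1 (1.15) were at percentiles 92.2 and 91.8. Its intensities were 13986 to 16228. The difference was 0.034 (95% confidence interval -0.28 to 0.34). The dimmer probe, ILMN_1653794, had 12.23, 11.84 and 12.05 with RUNX1 and 12.00, 12.25 and 12.25 with MCS, a difference of -0.13 (-0.49 to 0.24), so that the sign of the difference depends on the probe.
In this fit a 2-fold change in either direction lay outside the interval of each of the 6 genes. For SNHG1 this was by a small margin on the low side, and it did not hold in every alternative. The lower limit of SNHG1 was -1.03 with median scaling and -1.07 without RUNX1 replicate 1, which includes a 2-fold fall. It was -0.93 without background correction and -0.91 with the processed values of the authors, which does not. GAS5 and SNHG8 lie near background, and how far their intervals hold for the RNA itself was not tested. The exact 2-sided permutation p of the 6 genes was 0.7 to 1.0.

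**Figure D2:**
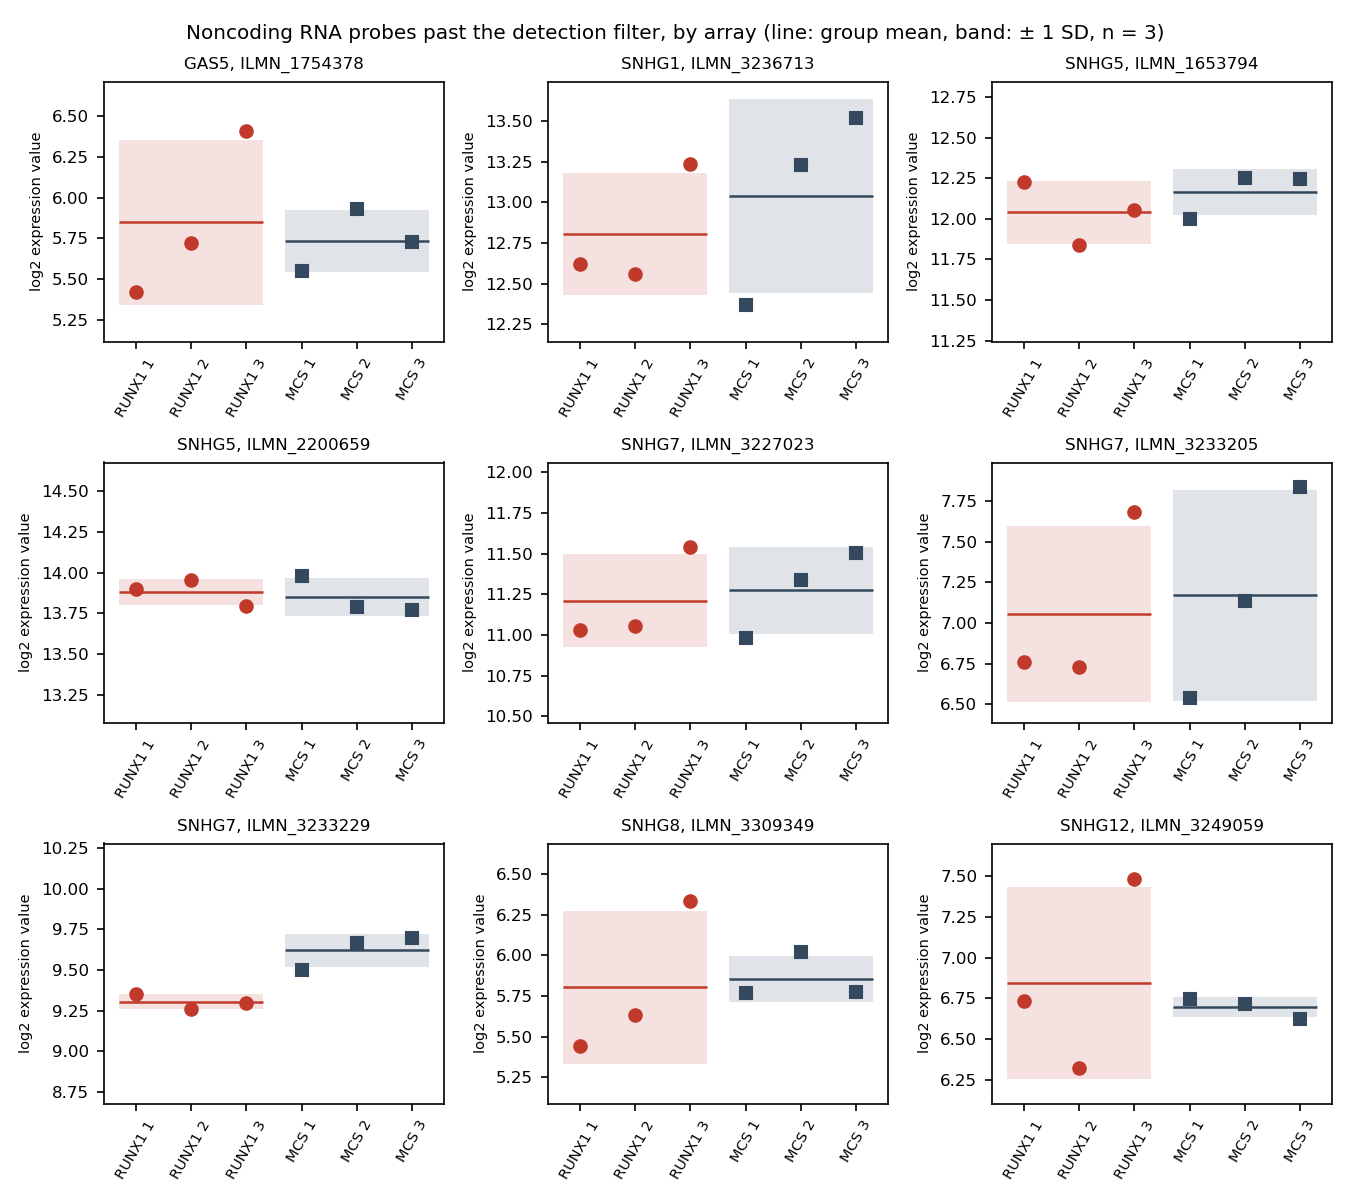
Log2 expression value (y axis, all panels span the same 1.6 units) of 9 noncoding RNA probes on each array (x axis), with RUNX1 arrays as circles, MCS arrays as squares, a line at each group mean and a band of 1 SD. SNHG7 probe ILMN_3233229 separates the groups at 9.26 to 9.35 against 9.50 to 9.70, and RUNX1 replicate 3 is the highest array for GAS5, SNHG8 and SNHG12.

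The remaining 4 RNAs did not pass the filter. SNHG3 (chr1:28505943-28510892), the host of SNORA73A and SNORA73B, had intensities of 103, 129 and 97.0 on the RUNX1 arrays and 111, 95.2 and 122 on the MCS arrays and was detected on 1 of 6, RUNX1 replicate 2. MALAT1 (chr11:65497738-65506516), the speckle RNA, had 87.1, 78.2 and 94.6 with RUNX1 and 85.2, 73.6 and 64.7 with MCS and was detected on 0 of 6 arrays. MEG3 (chr14:100826108-100861026) was detected in 0 of 12 signals of 2 probes, at 71.4 to 111 with RUNX1 and 63.9 to 106 with MCS. All of these lay below the lowest detected intensity of their array, apart from SNHG3 on RUNX1 replicate 2. NEAT1 (chr11:65422798-65445540), the scaffold of paraspeckles, had no named probe here and was not analysed. No level or difference is given for these 4 RNAs, and the arrays do not show that they are absent from the cells.

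**Figure D3:**
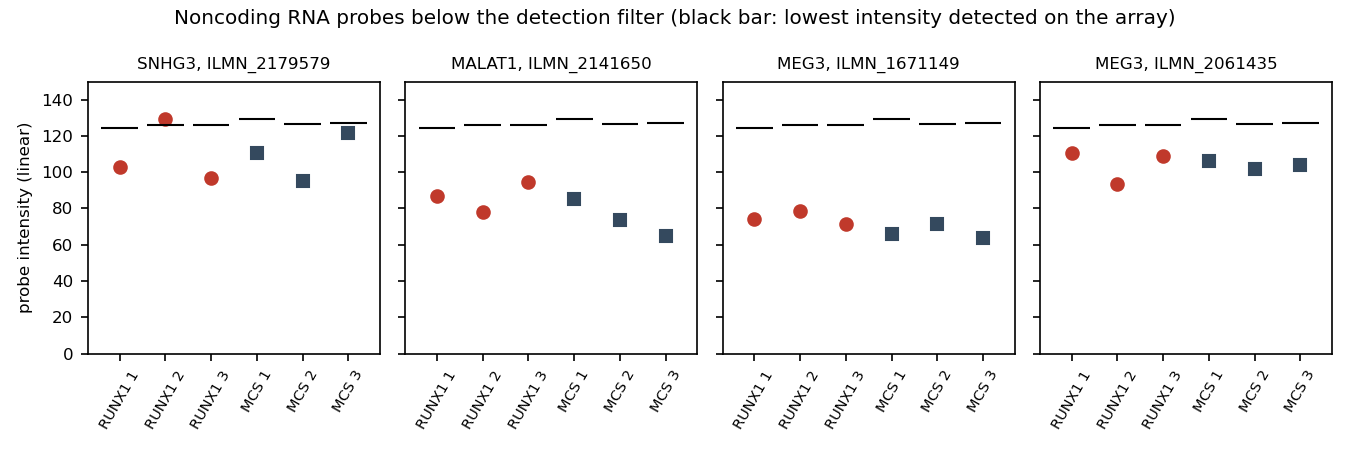
Linear probe intensity (y axis) of 4 noncoding RNA probes on each array (x axis), with circles for RUNX1, squares for MCS and a black bar at the lowest intensity detected on that array. SNHG3 on RUNX1 replicate 2, at 129, is the only point above its bar.

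The order of the arrays was shared by several hosts. The positive-score arrays were the 3 highest for GAS5, SNHG1, SNHG7 and SNHG8, which is 4 of 6, beside 18.1% of all genes, and the 3 lowest for SNHG5, beside 26.3%. The margin was small for 2 of them: GAS5 had 5.73 on MCS replicate 3 and 5.72 on RUNX1 replicate 2, and SNHG8 had 5.78 on MCS replicate 3 and 5.77 on MCS replicate 1. This split of the arrays was read from the values of all genes and is given as a description. Of 10 other noncoding snoRNA hosts past the filter, 5 had the positive-score arrays highest (SNHG15, SNHG17, SNHG32, ZFAS1 and EPB41L4A-AS1) and 1 lowest (DANCR). ZFAS1, host of box C/D snoRNAs, had 12.73, 12.82 and 13.37 on RUNX1 replicates 1 to 3 and 12.72, 13.25 and 13.43 on MCS replicates 1 to 3. Among 45 protein-coding snoRNA hosts, such as genes of ribosomal proteins and translation factors, 5 had them highest and 7 lowest.
The share of probes detected was 38.3% to 39.6% on the positive-score arrays and 39.8% to 40.9% on the rest. Of 5 fibroblast markers 2 passed the filter, and both had their 3 lowest values on the positive-score arrays, as did 26.3% of all genes. LUM, a matrix proteoglycan, was at 5.45, 5.41 and 5.45 there and at 8.37, 7.95 and 8.16 on the rest. COL1A1 was at 5.03, 5.59 and 5.20 and at 5.80, 5.67 and 5.64, all near background. Among the HEK293T markers that passed, VIM and NEFL had the positive-score arrays highest, and NEFM and INA had them lowest. DCN was detected in 2 of 24 signals and COL1A2 in 1 of 12. The summed level of the fibroblast list was 185 to 489 on RUNX1 arrays and 177 to 434 on MCS arrays, and that of the blood list, in which CD14 alone passed, 163 to 208 and 158 to 211. Blood markers PTPRC, CD3E, ITGAM and SPI1 were at 0 detected signals. By qRT-PCR the study reported that RUNX1 induced SPI1, to a level far below that of monocytes. The 0 detected signals of SPI1 therefore do not show that it is absent. The part of the detected shares and of these markers in the order of the host RNAs was not tested.

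The snoRNAs within the hosts had annotated probes of their own. Of 31 listed symbols, 29 were found in RefSeq and each of these lay within the span of its host, 25 had a named probe and 13 passed the filter. None of the 13 was higher and none lower at an adjusted p under 0.05 from limma, their differences ran from -0.61 to 0.25 with a median of -0.15 (0.021 over all genes), and 1 had an unadjusted p under 0.05, beside 2.26% of all genes. A BeadChip probe cannot separate the mature snoRNA from its unspliced host precursor. The values below are therefore signals of probes annotated to a snoRNA and not levels of the mature snoRNA. How much of either RNA was carried through the amplification was not tested.
That 1 was SNORA17B (chr9:136726104-136726237), within SNHG7. It had 5.54, 5.20 and 5.55 on RUNX1 replicates 1 to 3 and 5.97, 6.03 and 6.13 on MCS replicates 1 to 3. All RUNX1 arrays lay below all MCS arrays, as for SNHG7 probe ILMN_3233229, where 2.75% of all genes did. The RUNX1 values lie near background, since GAS5 was not detected at 5.42 on RUNX1 replicate 1. Detection on any 3 arrays passes the filter, so the MCS arrays alone can carry a gene past it. The separation is therefore given as a description. The difference was -0.61 (standard error 0.14), with an unadjusted p of 0.00365 and an adjusted p of 1.00 from limma. It was -0.50 to -0.67 when each array was left out in turn, -0.23 with the processed values of the authors, -0.27 without background correction and -0.37 with an offset of 50. SNORA17A, the other H/ACA snoRNA of SNHG7, had 6.60, 6.24 and 6.85 with RUNX1 and 6.71, 6.91 and 6.93 with MCS, which overlap.
In SNHG1, 4 of 7 snoRNAs with a probe passed, and all 4 had the same 3 highest arrays as their host. SNORD25 had 7.77, 7.80 and 9.56 with RUNX1 and 7.80, 9.11 and 9.66 with MCS, a span of 1.89 at percentile 99.2 of all genes. SNORD22 had 6.53, 6.12 and 7.32 with RUNX1 and 5.72, 6.82 and 7.38 with MCS. SNORD30 spanned 0.79 and SNORD31 1.17, with differences of -0.32 and -0.51. The difference of SNORD25 was -0.48 and that of SNORD22 was 0.017.
SNORD80, the 1 of 8 GAS5 snoRNAs with a probe that passed, had 7.54, 7.35 and 8.25 with RUNX1 and 7.50, 8.04 and 8.03 with MCS, with the 3 highest arrays of its host. In SNHG12, SNORA61 (10.29, 10.38 and 10.76 against 10.35, 10.72 and 10.96) and SNORD99 (7.33, 6.94 and 7.78 against 6.78, 7.43 and 7.85) had the positive-score arrays highest, which the host did not. SNORA16A, in the same host, was at 6.85, 6.93 and 6.94 with RUNX1 and 6.77, 6.54 and 6.67 with MCS, higher on each RUNX1 array, with a difference of 0.25 and an unadjusted p of 0.0821, where 3.81% of all genes lay higher without overlap.
SNORA73A and SNORA73B, both in SNHG3, ran the other way. SNORA73B had 9.45, 9.41 and 8.68 with RUNX1 and 9.30, 8.68 and 8.81 with MCS, and SNORA73A had 9.04, 9.14 and 8.56 and 9.09, 8.37 and 8.69. The positive-score arrays were the 3 lowest for both, while the host RNA itself did not pass the filter. In SNHG5, 0 of 2 snoRNAs passed: SNORD50A was detected on 0 of 6 arrays and SNORD50B on 1 of 6. SNORA24, in SNHG8, had 8.18 to 8.67 over the 6 arrays and followed neither order. Across the 13 snoRNAs, 8 had the positive-score arrays highest and 2 lowest, beside 18.1% and 26.3% of all genes. Of these 8, 4 lie in SNHG1, and their probes may read the same precursor, so they are not separate observations.

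**Figure D4:**
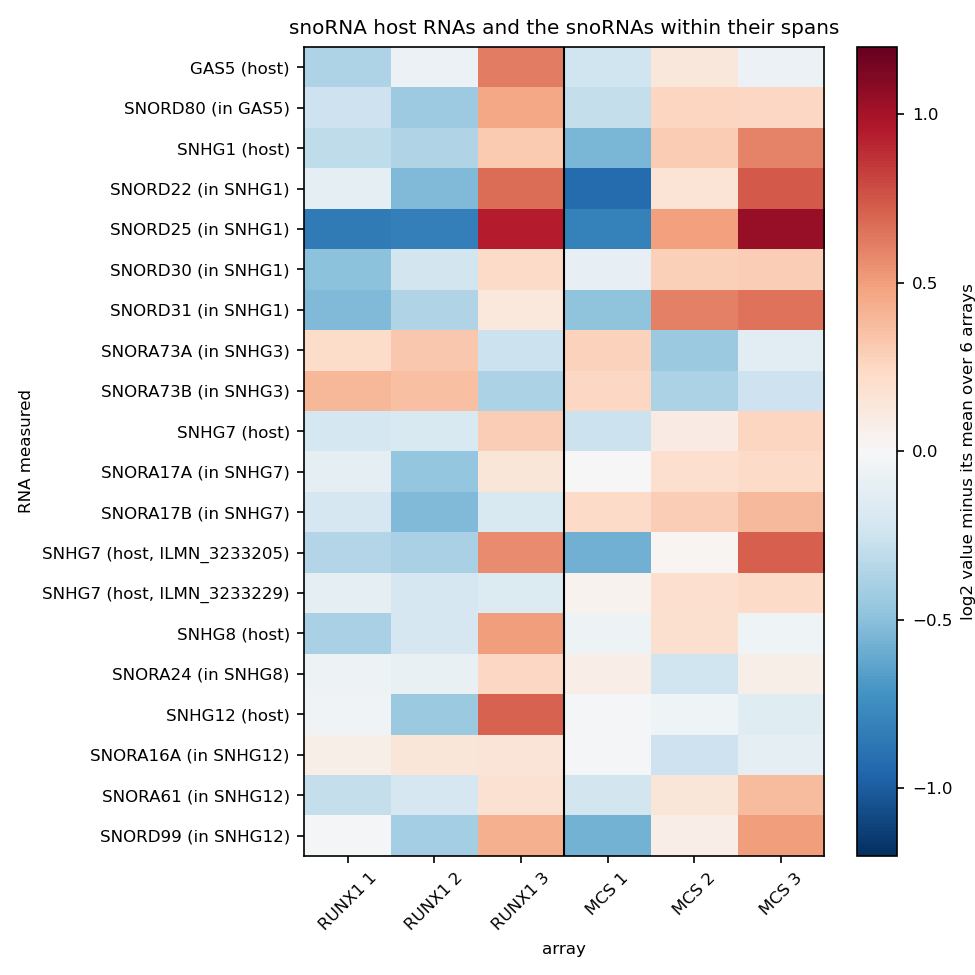
Log2 value of each RNA minus its mean over the 6 arrays (colour), for snoRNA host RNAs and the snoRNAs within them (y axis) on each array (x axis; a black line parts RUNX1 from MCS). SNORD25 in SNHG1 has the strongest colours, from 7.77 to 9.66, SNORA73A and SNORA73B run opposite to SNHG1, and SNORA17B and SNHG7 probe ILMN_3233229 are low on all 3 RUNX1 arrays.

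Other noncoding snoRNA hosts were compared in the same fit. Of 20 listed, 12 had a named probe and 10 were tested, with 0 higher and 0 lower at an adjusted p under 0.05, a median difference of -0.11, and 7 of 10 below 0. SNHG4, host of an H/ACA snoRNA, had 8.49, 8.47 and 8.71 with RUNX1 and 8.79, 9.09 and 9.26 with MCS. Each RUNX1 array lay below each MCS array, as did 2.75% of all genes. Of the 10 hosts, SNHG4 was the 1 with an unadjusted p under 0.05 from limma, beside 2.26% of all genes. The difference was -0.49 (standard error 0.16), with an unadjusted p of 0.0188 and an adjusted p of 1.00 from limma. SNHG9 had the next smallest p, with a difference of 0.18 (standard error 0.16).
Among the 45 protein-coding hosts, with a median difference of -0.013, the smallest p-values belonged to CHD8, a chromatin remodeller (-0.33, standard error 0.15), and CCT6A, a chaperonin subunit (-0.26, standard error 0.13). Both were lower on each RUNX1 array, and 6 of 45 were lower and 3 higher without overlap, beside 2.75% and 3.81% of all genes. None passed the adjusted threshold.

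Proteins that act on these RNAs were also measured. Of 14 nonsense-mediated decay factors tested, 0 passed the threshold in either direction, with a median of -0.054. SMG8, a regulator of the SMG1 kinase, had a difference of 0.31 (standard error 0.17), and UPF2, which bridges UPF1 to the exon junction complex, 0.18 (standard error 0.12). Of the 14, 9 had differences below 0, 1 was higher on each RUNX1 array (UPF2) and 2 were lower on each (DHX34 and EIF4A3), beside 3.81% and 2.75% of all genes. Of 19 snoRNP proteins, which form and assemble the particles around snoRNAs, 0 passed, with a median of 0.017, and NOLC1, a chaperone of snoRNPs, had -0.35 (standard error 0.16) and NAF1, an H/ACA assembly factor, -0.31 (standard error 0.16). Of the 19, 3 were lower on each RUNX1 array (NHP2, NOP56 and DKC1) and 0 higher, beside 2.75% and 3.81% of all genes. NOP56 and DKC1 are also counted among the protein-coding hosts above, and the difference of DKC1 was -0.065.
Of 11 paraspeckle proteins 0 passed, with differences from -0.14 (HNRNPK) to 0.12 (SMARCA4). Of 10 genes in the list of speckle proteins 0 passed, with a median of -0.11, METTL16 at -0.21 and PNISR at -0.13. Whether the protein of each listed gene lies in speckles was not tested. Near MEG3 on chromosome 14, DLK1 was detected in 0 of 12 signals and 5 of 10 listed genes were tested. Of these BEGAIN, a synaptic scaffold gene, had 5.30, 5.16 and 5.52 with RUNX1 and 5.66, 6.14 and 6.39 with MCS, without overlap, as did 2.75% of all genes in this direction. The RUNX1 values lie near background: 5.30 and 5.16 are below the 5.42 of GAS5 on RUNX1 replicate 1, which was not detected. As for SNORA17B, the MCS arrays alone can carry such a gene past the filter, so the separation is given as a description. The difference was -0.74 (standard error 0.21), with an unadjusted p of 0.00939 and an adjusted p of 1.00 from limma. It depended on the processing, at -0.29 with the processed values of the authors, -0.33 without background correction and -0.45 with an offset of 50. YY1 had 0.073 (standard error 0.17).

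**Figure D5:**
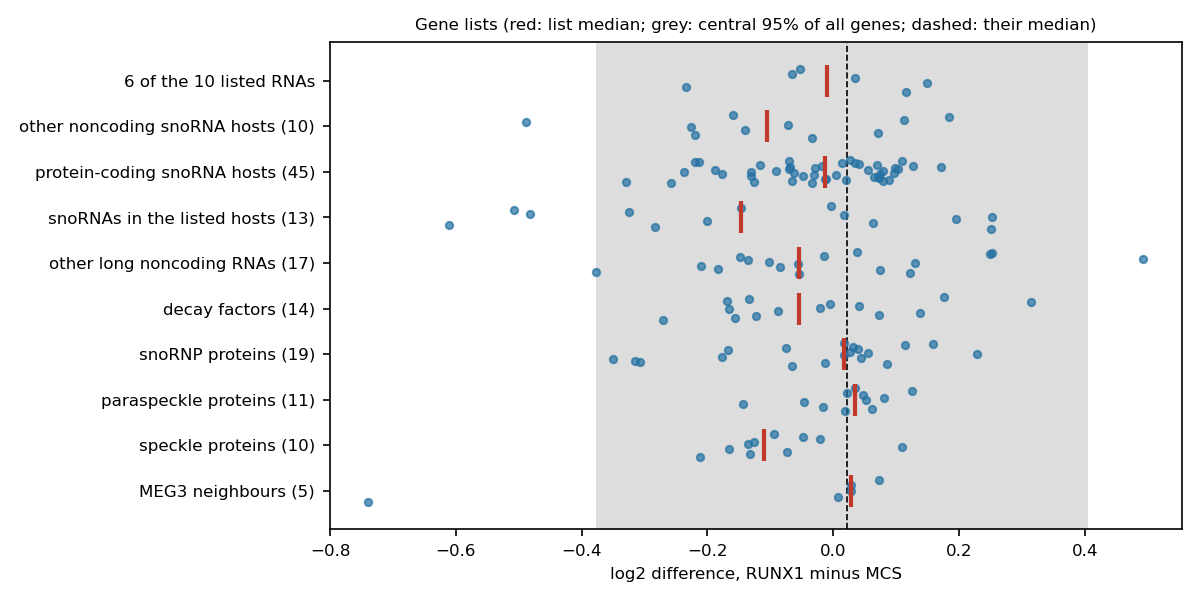
Log2 difference (x axis, RUNX1 minus MCS) of each gene tested (points) in 10 lists (y axis, number tested in brackets), with red bars at list medians, a dashed line at the median of all genes (0.021) and grey for their central 95%, from -0.38 to 0.40. SNORA17B (-0.61), SNORD31 (-0.51), SNORD25 (-0.48), SNHG4 (-0.49) and BEGAIN (-0.74) lie to the left of the grey band and RMRP (0.49) to its right, and the 6 listed RNAs lie within it.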

How the data were processed

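Total RNA of HEK293T cells was amplified and hybridized by the authors to HT-12 v4 BeadChips, 1 array per sample and 3 per group, and grouped here by the sample titles. The authors deposited an intensity per probe, summarised over beads by BeadStudio, on a linear scale without background subtraction or normalization, and beside it a detection p-value against the negative controls of the array. The authors also deposited processed values, treated here as log2, made with lumi (version not given in the sources used here). Their transformation and background step are unknown, the median was 7.19 in all 6 columns, and ranks matched those of the intensities (correlation 1).

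The neqc function (limma 3.58.1, R 4.3.3) was applied to the intensities (background from detection p-values, offset 16, quantile normalization, log2). Platform annotation gave 30113 probes 1 symbol, 8 several and 17110 none, and 30074 matched RefSeq by Entrez identifier. A probe was kept if its detection p was under 0.05 on 3 or more arrays (18867 probes), and each gene was represented by its brightest such probe. Groups were compared by lmFit and eBayes without covariates and with Benjamini-Hochberg adjustment over 11129 genes, or over all 18867 probes where a probe is named by its identifier. All 10 RNAs are named, with the 2 smallest p-values of each list and every snoRNA of the hosts that was tested. Other list genes named for contrast were picked after their values were seen. The listed RNAs and lists were chosen with earlier results of these data known. Alternatives were other background corrections, normalizations, filters, probe rules and tests, array weights, a replicate block, and leaving out arrays from the values normalized together.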

Additional observations from a re-analysis of the deposited data

How the results depend on the processing

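Under 18 alternatives, 0 genes passed an adjusted p under 0.05 in 16. Array weights, lowest for RUNX1 replicate 3 (0.279) and MCS replicate 1 (0.314), called 897 genes, 12 of them in the lists around the 10 RNAs and 0 of the 10. Leaving both of these arrays out called 1585 genes, 21 in the lists, and 1 of the 10 RNAs by gene and by probe (SNHG1). In these settings SNHG4, SNORA17B and BEGAIN passed too (adjusted p = 0.0447 for each with weights, and 0.0186, 0.0273 and 0.00856 without the 2 arrays, from limma), but the groups then lean on or coincide with the positive and negative scores of the main axis. By the methods' t-test 360 genes had an unadjusted p under 0.05, and 0 remained once adjusted by Benjamini-Hochberg. Signs near 0 turned: GAS5 was at -0.0098 with median scaling, -0.21 with array weights and -0.26 without both arrays, SNHG5 at -0.016 with median scaling and -0.046 with the mean of its probes, and SNHG12 at -0.16 and -0.14 with array weights and without both arrays. The cause was not tested. Leaving out single arrays gave differences from -0.17 to 0.33 for GAS5, -0.57 to 0.0044 for SNHG1, -0.0036 to 0.10 for SNHG5, -0.23 to 0.050 for SNHG7, -0.32 to 0.13 for SNHG8 and -0.17 to 0.41 for SNHG12, each still short of the threshold. SNHG7 probe ILMN_3233229 stayed between -0.44 and -0.27 in 17 alternatives, with the smallest adjusted p at 0.0761. Median scaling put the median of all genes at -0.089, against 0.021. Under the stricter detection filter GAS5 and BEGAIN were not tested. With the replicate number of the titles as a block, 0 genes passed. Same-numbered arrays deviated from their group means with correlations of 0.57, -0.35 and 0.70 for replicates 1 to 3. On the main axis the arrays numbered 1 shared a sign, as did those numbered 3, and those numbered 2 did not. These values cannot tell whether the numbers pair the samples or reflect a batch. Signals near background, as for GAS5, SNHG8, SNORA17B and BEGAIN, limit what can be read from their differences.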

Other observations

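Some long noncoding RNAs outside the list varied widely over the arrays. TERC, the RNA template of telomerase, had log2 values of 9.65, 10.11 and 8.27 on RUNX1 replicates 1 to 3 and 10.18, 8.81 and 8.29 on MCS replicates 1 to 3, a span of 1.91. RMRP, the RNA of RNase MRP, had 7.99, 8.06 and 7.90 with RUNX1 and 8.12, 7.22 and 7.13 with MCS. In contrast, BCYRN1 had 11.99, 11.81 and 12.89 with RUNX1 and 11.60, 12.55 and 12.72 with MCS. RN7SK, which holds the elongation factor P-TEFb inactive, had 11.64, 11.68 and 12.39 with RUNX1 and 11.73, 12.13 and 12.30 with MCS. The positive-score arrays were the 3 lowest for TERC and RMRP and the 3 highest for BCYRN1 and RN7SK, which were picked after their values were seen. Of the 17 such RNAs tested, 4 had these arrays highest and 4 lowest, beside 18.1% and 26.3% of all genes.

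Of 44 such RNAs listed, 29 had a named probe and 17 were tested. By limma, 0 rose and 0 fell after adjustment, and the count at an unadjusted p under 0.05 was also 0. Their median difference was -0.054, beside 0.021 over all genes. CRNDE, a noncoding RNA of developing tissue, had the smallest p, at 7.24 ± 0.15 (SD, n = 3) on RUNX1 arrays against 7.62 ± 0.31 (SD, n = 3), a difference of -0.38 (standard error 0.19), and RMRP followed with 0.49 (standard error 0.26). H19 and MIAT were each detected in 0 of 6 signals.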
